A study of Mus musculus with 2 samples.

Results

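The 47 genes described here, measured by total RNA sequencing of hippocampus from 2 adult female mice with 1 library each, are immediate early genes, which neurons transcribe within minutes of strong activity, together with genes that follow more slowly and feedback regulators of the same signals. They were selected by gene symbol from 55536 annotated mouse genes, and all 47 symbols matched a gene. The list was chosen with the ratio between these 2 animals already known, so the difference between the animals is given as a description and carries no test. The mice were B6CASTF1/J, the F1 hybrid of the C57BL/6J and CAST/EiJ strains, 8 to 10 months old. The libraries came from animals 1 and 5, each from 300 ng of RNA with synthetic ERCC RNA added. The labels give both samples 1 donor identifier but different animal numbers, and they were read as 2 animals. Neither animal is labelled with a stimulus, a behaviour or a time of day, so the samples form 1 group and no stimulated sample bears on the name of the list. The tissue is labelled as a layer of the hippocampus. Markers of dentate granule cells, CA1 and CA3 pyramidal neurons, interneurons and glia were all present at a TPM of at least 1 in both libraries (TPM is the authors' measure of level, scaled for transcript length and library size).

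Immediate early genes need no new protein synthesis to start. Calcium entry and receptor signalling reach them through the MAP kinase cascade, cyclic AMP and calcium-dependent kinases, which act on factors such as CREB and SRF that already sit at their promoters. Many of the first products are transcription factors, others act directly at synapses, and another set, such as the dual-specificity phosphatases, switches the signal off. In the hippocampus several of them, Fos and Arc foremost, are used as marks of neurons that were recently active. In bulk tissue, fewer cells of a type and less RNA per cell cannot be told apart, and the same holds for fewer active neurons and less RNA in each.

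Levels per transcript length differed widely among the 47 genes. TPM reached 1 in both libraries for 41 of them, beside 15245 of the 55536 annotated genes. Of the other 6, Egr2 and Amigo3 passed 1 TPM in replicate 1 only, and Fosl1, Atf3, Maff and Zfp36 stayed below it in both. The summed TPM of the list was 920.88 in replicate 1 and 730.86 in replicate 2, a mean of 826 ± 134 (SD, n = 2). The list held 0.151% of the expected counts in replicate 1 and 0.116% in replicate 2. Both sums were therefore lower in replicate 2.

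The kinase gene Plk2 stood at the top with 136 ± 18.4 TPM, above Jund in both animals and by more than either gene's SD. Jund, with 77.1 ± 1.05 TPM, came second and stood apart from Jun, Egr3, Dusp6 and Fbxo33, but not from Arc, whose 41.7 ± 36.7 TPM had the widest spread of the list in TPM. Below Jund, the genes Arc, Jun, Egr3, Dusp6, Fbxo33, Junb, Nr4a1, Nr4a2, Nr4a3, Egr1, Fosl2 and Rgs2 lay between 41.7 and 22.3 TPM, and no neighbours among them were apart by more than their SDs in both animals. Of the 46 pairs of neighbours in the whole order, 7 were apart in this way. At the low end lay Maff at 0.645 TPM, Atf3 at 0.385 TPM and Fosl1 at 0.085 TPM. Fosl1, which encodes the AP-1 subunit FRA1, had 3 counts in replicate 1 and none in replicate 2.

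**Figure D1:**
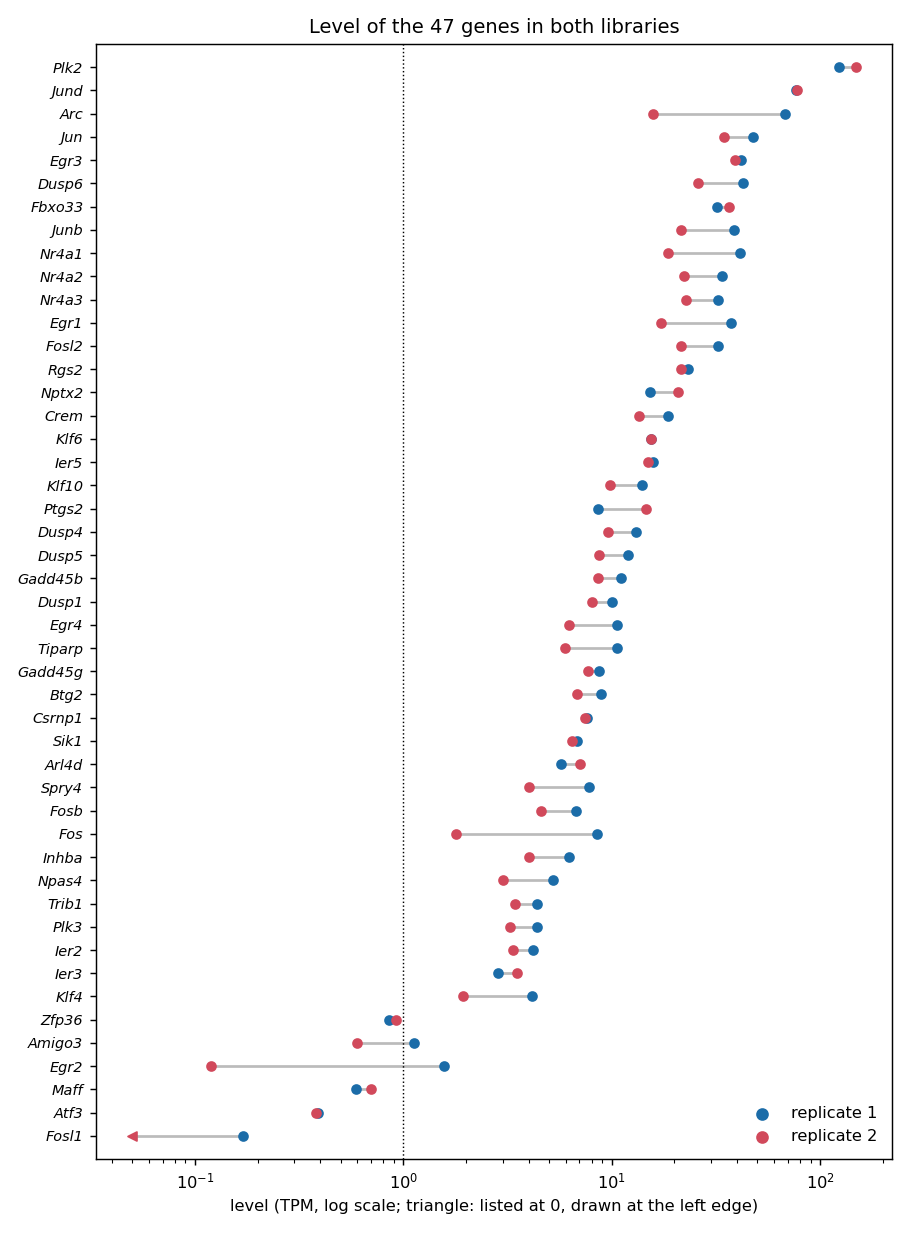
Level of each of the 47 genes in TPM (horizontal log axis), ordered by mean, with replicate 1 in blue, replicate 2 in red and a dotted line at 1 TPM. Plk2 lies at the top with 123.07 and 149.03 TPM, the gap between the points is widest for Arc, Fos and Egr2, and for most genes the red point lies to the left of the blue one.

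The animals were compared by the log2 ratio of normalised counts, replicate 2 over replicate 1, so that a negative value means a lower level in replicate 2. Ratios were read for genes with a mean count of at least 50, which 41 of the 47 genes had. Of these 41 genes, 33 (80.5%) were lower in replicate 2, beside 54.1% of all 14434 genes with that count. Their median log2 ratio was -0.44, beside -0.02 over all genes. The 95% interval, which covers the counting error of 2 libraries and no variation between animals, lay wholly below 0 for 28 of the 41 genes, beside 25.6% of all genes. It lay wholly above 0 for 4 genes (Plk2, Rgs2, Nptx2 and Ptgs2), beside 18.7% of all genes, and covered 0 for 9 genes. The 41 ratios ranged from -2.22 for Fos to 0.57 for Ptgs2.

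A stricter criterion asked for a 2-fold difference, a log2 ratio of -1 or below or of 1 or above, with an interval that leaves out equality. It was met on the lower side by 4 genes (Fos, Arc, Egr1 and Nr4a1), or 9.76% of the 41, beside 0.513% of all genes. On the higher side it was met by 0 of the 41 genes, beside 0.589% of all genes. Nr4a1, at -1.07, was the gene just inside the criterion, and Spry4, at -0.95, the gene just outside. Scaling by the spike-in total moved the median of all genes by -0.24, and 9 of the 41 genes then met the criterion on the lower side, beside 1.16% of all genes. In that scaling 36 of the 41 genes were lower, beside 87.0% of all genes, with Jund, Csrnp1 and Rgs2 newly below 0. Since the list was chosen with this contrast known, the shares describe the choice and support nothing further. The ratio did not track abundance in a single direction. Of the 7 genes with mean counts between 50 and 200, 5 were lower with a median of -0.32, and of the 7 genes between 2000 and 8000, 5 were lower with a median of -0.47, while all genes in those ranges had medians of 0.04 and -0.03. In the ranges 200 to 500, 500 to 1000 and 1000 to 2000, 12 of 13, 5 of 8 and 6 of 6 genes were lower. Their medians were -0.41, -0.04 and -0.82, beside -0.01, -0.03 and -0.04 over all genes.

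**Figure D2:**
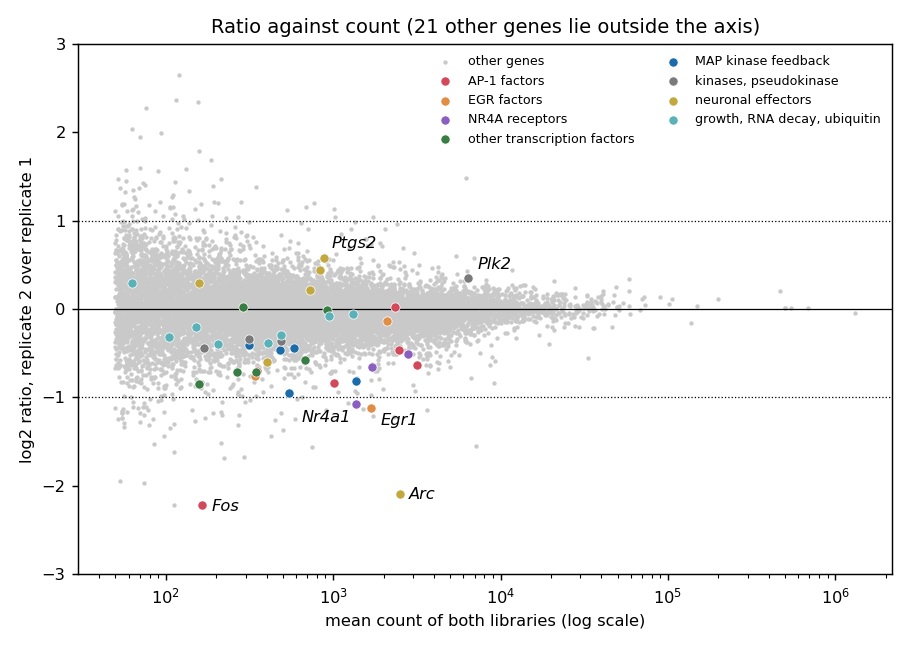
Log2 ratio of replicate 2 over replicate 1 (vertical axis) against mean count (horizontal log axis) for 14393 other genes in grey and the 41 listed genes coloured by role, with dotted lines at 1 and -1. Fos and Arc lie near -2 where few other genes lie, and most coloured points sit below 0.

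The AP-1 factors are leucine-zipper proteins that pair as Fos-Jun dimers or with their relatives. Of 9 listed, 6 passed the count minimum, and 5 of those 6 were lower in replicate 2, with a median of -0.67. Fos (ENSMUSG00000021250, build mm10, chromosome 12, 85473890 to 85477273, plus strand), the classic marker of recent neuronal activity, had 281 counts in replicate 1 and 49 in replicate 2, or 8.49 and 1.78 TPM. Its log2 ratio of -2.22 (interval -2.73 to -1.82), a 4.66-fold lower level in replicate 2, was the lowest of the 41 genes. Fosb, whose truncated product accumulates in neurons under repeated stimulation, had 466 and 238 counts, or 6.71 and 4.57 TPM, a log2 ratio of -0.71. Fosl2, a more stable Fos relative, had 4141 and 2225 counts and a ratio of -0.64. All 3 Fos-family genes with enough counts were therefore higher in the same animal, with Fos set apart in size.

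Among the Jun genes, the most abundant was also the one that stood level in both animals. Jund (chromosome 8, 70698949 to 70700616, plus strand, ENSMUSG00000071076), a constitutive member of the family, had 2524 and 2150 counts, or 76.36 and 77.85 TPM, and its log2 ratio of 0.03 (interval -0.06 to 0.11) covered 0. Jun (chromosome 4, 95049034 to 95052222, minus strand, ENSMUSG00000052684) had 3098 and 1872 counts, or 47.57 and 34.41 TPM, and a ratio of -0.47 (interval -0.55 to -0.39). Junb (chromosome 8, 84974484 to 84978718, minus strand, ENSMUSG00000052837), the partner most often induced with Fos, had 1385 and 648 counts, or 38.54 and 21.53 TPM, and a ratio of -0.84 (interval -0.97 to -0.70). The 3 intervals did not overlap one another, so within counting error the 3 Jun genes differed between the animals by unequal amounts. Junb overlaps Prdx2, an abundant peroxiredoxin gene on the opposite strand with 3742 and 3025 counts. Whether reads were counted by strand is not stated in the labels or headers, and reads of the 2 genes cannot then be told apart where they overlap. Atf3, a stress-induced repressor with 15 and 12 counts, and Maff, a small Maf protein with 23 and 23 counts, were too low for a ratio.

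The 250 bases before the start of Fos and Junb are printed because these 2 genes had the lowest ratios of the 6 AP-1 genes and share a short sequence. Capitals mark TGACG or its reverse complement CGTCA, the core of the cyclic AMP response element that CREB binds. The windows, from RefSeq on build GRCm38.p6 and read 5′ to 3′ along the gene, are chr12:85473640-85473889 (plus strand) for Fos and chr8:84978749-84978998 (minus strand) for Junb. The Fos window holds the core 129 and 66 bases before the start, and the Junb window holds it 106 bases before. The Fosb window also holds it, and the Jun and Fosl2 windows, of genes likewise lower in replicate 2, do not. In such windows the core was present in 20 of 35 listed genes (57.1%), beside 19.8% of 27025 genes. A match of letters describes the sequence and does not show that a factor was bound.
Fos: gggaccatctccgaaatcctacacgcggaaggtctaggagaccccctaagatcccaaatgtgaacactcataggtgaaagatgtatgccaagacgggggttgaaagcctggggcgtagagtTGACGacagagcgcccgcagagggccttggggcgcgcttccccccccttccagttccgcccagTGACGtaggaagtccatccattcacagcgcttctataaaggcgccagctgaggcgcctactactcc
Junb: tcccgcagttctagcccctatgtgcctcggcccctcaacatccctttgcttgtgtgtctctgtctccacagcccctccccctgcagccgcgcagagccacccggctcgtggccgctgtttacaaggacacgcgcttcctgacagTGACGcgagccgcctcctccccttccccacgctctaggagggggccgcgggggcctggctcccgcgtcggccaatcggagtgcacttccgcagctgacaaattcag

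The EGR factors are zinc-finger proteins that bind GC-rich sites and regulate synaptic genes. All 3 with enough counts were lower in replicate 2, with a median of -0.76. Egr1 (ENSMUSG00000038418), also called Zif268 and widely tied to memory consolidation, had 2445 and 936 counts, or 37.16 and 17.23 TPM. Its log2 ratio was -1.12 (interval -1.24 to -1.02), 2.18-fold lower in replicate 2. Egr3 (chromosome 14, 70077203 to 70082614, plus strand, ENSMUSG00000033730), which acts downstream of MAP kinase signalling in neurons and muscle spindles, had 2387 and 1812 counts, or 41.53 and 38.96 TPM, and a ratio of -0.14 (interval -0.23 to -0.05). In replicate 1 Egr1 and Egr3 thus stood at like whole-gene levels per length, and in replicate 2 Egr3 was the higher of the 2. Coding transcripts held 34.2% and 32.3% of the Egr3 TPM and 100% of the Egr1 TPM. The order of the 2 genes therefore does not describe their coding transcripts.

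Egr4, the most neuron-restricted EGR gene, had 456 and 224 counts, or 10.56 and 6.21 TPM, and a ratio of -0.76. Egr2, best known for its part in peripheral myelination and hindbrain patterning, had 92 counts in replicate 1 and 6 in replicate 2, or 1.56 and 0.12 TPM. Its mean of 49 counts was just under the minimum, and its log2 ratio of -3.33 (interval -5.16 to -2.50) was the lowest of all 47 genes but rests on the fewest counts of the family. The Egr4 window, chr6:85513590-85513839 on the minus strand from RefSeq on GRCm38.p6, is printed because it holds CGTCA at 177 and 109 bases before the start, in capitals.
Egr4: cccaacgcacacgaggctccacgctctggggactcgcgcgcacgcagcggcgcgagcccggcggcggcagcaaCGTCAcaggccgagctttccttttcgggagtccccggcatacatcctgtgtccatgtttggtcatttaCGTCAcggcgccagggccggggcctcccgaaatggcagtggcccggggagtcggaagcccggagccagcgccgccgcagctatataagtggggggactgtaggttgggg

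The NR4A genes encode orphan nuclear receptors that need no known ligand and act as immediate early transcription factors. All 3 were lower in replicate 2, with a median of -0.65, and they stood at like levels of 27.5 to 29.9 TPM on average. Nr4a1 (chromosome 15, 101254269 to 101274795, plus strand, ENSMUSG00000023034), also called Nur77, had 1949 and 774 counts, or 41.09 and 18.69 TPM. Its ratio of -1.07 (interval -1.20 to -0.95) was a 2.10-fold lower level. Nr4a2, also called Nurr1 and required for midbrain dopamine neurons, had 2234 and 1186 counts, or 33.99 and 22.30 TPM, and a ratio of -0.65 (interval -0.76 to -0.55). Nr4a3, also called NOR-1, had 3536 and 2080 counts, or 32.32 and 22.70 TPM, and a ratio of -0.51 (interval -0.59 to -0.43). The order of the 3 TPM values therefore reversed between the animals, with Nr4a1 highest in replicate 1 and lowest in replicate 2.

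All 3 NR4A windows hold 4 copies of the core in 250 bases, more than the Fos and Junb windows do, and those of Nr4a1 and Nr4a2, which lie outside annotated exons, are printed. They are chr15:101266596-101266845 (plus strand) and chr2:57124004-57124253 (minus strand), from RefSeq on GRCm38.p6. Capitals mark TGACG or CGTCA and, in Nr4a1, CGCCCCCGC, the reverse complement of the EGR site GCGGGGGCG. In Nr4a1 the cores begin 233, 213, 69 and 40 bases before the start and the EGR site 60 bases before. In Nr4a2 they begin 200, 144, 123 and 111 bases before.
Nr4a1: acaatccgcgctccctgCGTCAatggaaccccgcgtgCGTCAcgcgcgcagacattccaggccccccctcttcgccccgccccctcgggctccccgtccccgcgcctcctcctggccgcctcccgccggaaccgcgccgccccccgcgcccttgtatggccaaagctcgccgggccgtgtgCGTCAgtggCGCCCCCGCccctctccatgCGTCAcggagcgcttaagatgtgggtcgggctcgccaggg
Nr4a2: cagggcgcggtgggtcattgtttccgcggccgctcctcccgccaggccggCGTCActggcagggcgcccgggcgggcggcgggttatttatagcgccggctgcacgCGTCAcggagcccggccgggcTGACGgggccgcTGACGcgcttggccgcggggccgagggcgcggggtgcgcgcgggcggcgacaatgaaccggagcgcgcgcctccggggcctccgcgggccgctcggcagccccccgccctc

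The other transcription factors of the list split into genes with lower levels in replicate 2 and genes with like levels in both. Of the 6, 5 were lower, with a median of -0.65. Npas4, a factor that neurons switch on through calcium entry and that tunes inhibitory synapses, had 353 and 179 counts, or 5.22 and 3 TPM, and a ratio of -0.72. Crem, whose inducible short form ICER represses cyclic AMP targets, had 461 and 234 counts and a ratio of -0.72. Klf4 had the lowest ratio of the group at -0.85 on 218 and 100 counts, and Klf10, a TGF-beta-inducible factor, had 868 and 484 counts and -0.58. Klf6, with 997 and 830 counts and -0.01, and Csrnp1, an AXIN1-induced nuclear protein with 314 and 266 counts and 0.02, had intervals that covered 0. Within 1 family of Kruppel-like factors, Klf4 and Klf10 were thus lower in replicate 2 and Klf6 was level.

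Genes of MAP kinase feedback were lower in replicate 2 throughout, all 5 of 5, with intervals wholly below 0 and a median of -0.47. Dusp6 (chromosome 10, 99263231 to 99267489, plus strand, ENSMUSG00000019960), the cytoplasmic phosphatase that removes activating phosphates in the MAP kinase cascade, had 1846 and 879 counts, or 42.49 and 25.96 TPM, and a ratio of -0.81 (interval -0.93 to -0.70). Spry4, a Sprouty protein that restrains receptor tyrosine kinase signalling, had 765 and 329 counts, or 7.80 and 4.01 TPM, and a ratio of -0.95 (interval -1.15 to -0.77). The nuclear phosphatases differed less. Dusp1, which acts mainly on p38 and JNK, had 385 and 242 counts and a ratio of -0.41. Dusp4 had 727 and 447 counts with -0.44, and Dusp5 had 601 and 363 counts with -0.47. Dusp6 and Spry4, both known as readouts of that cascade, were therefore the most different of the group, and their intervals did not overlap those of Dusp1, Dusp4 or Dusp5.

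Of the kinase genes, 3 of 4 were lower and the most abundant was higher. Plk2 (chromosome 13, 110395046 to 110400844, plus strand, ENSMUSG00000021701), a polo-like kinase that acts in the weakening of overactive synapses, had 6221 and 6609 counts, or 123.07 and 149.03 TPM, and a ratio of 0.35 (interval 0.30 to 0.40). Its relative Plk3 had 211 and 129 counts and -0.45. Sik1, a salt-inducible kinase that restrains CREB co-activators, had 594 and 387 counts and -0.36, and the pseudokinase Trib1 had 379 and 250 counts and -0.34. The Plk2 window, chr13:110394794-110395043 (plus strand, RefSeq, GRCm38.p6), is printed because it holds the full palindromic element TGACGTCA, 62 bases before the start, next to a ratio opposite to that of Fos.
Plk2: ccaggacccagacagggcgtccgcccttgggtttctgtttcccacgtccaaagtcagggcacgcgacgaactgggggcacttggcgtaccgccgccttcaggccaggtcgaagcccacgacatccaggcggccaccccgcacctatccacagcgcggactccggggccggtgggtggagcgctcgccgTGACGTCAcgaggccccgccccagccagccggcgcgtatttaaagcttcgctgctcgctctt

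The neuronal effectors, which act outside the nucleus, held Arc and 4 of the 8 genes that were higher in replicate 2. Of the 6 with enough counts, 2 were lower and 4 higher, and the median was 0.26, or 3 lower and 0.01 with spike-in scaling. Arc (chromosome 15, 74669083 to 74672570, minus strand, ENSMUSG00000022602), which drives removal of AMPA receptors from synapses and forms capsid-like particles, had 4215 counts in replicate 1 and 824 in replicate 2, or 67.67 and 15.83 TPM. Its ratio of -2.09 (interval -2.20 to -1.99), 4.27-fold lower in replicate 2, rests on many more counts than that of Fos. Inhba, the activin A subunit, had 520 and 286 counts and -0.60. Those were the 2 lower genes of the group.

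The other 4 lay on the opposite side. Ptgs2 (chromosome 1, 150100031 to 150108227, plus strand, ENSMUSG00000032487), the inducible cyclooxygenase COX-2, had 786 and 978 counts, or 8.57 and 14.61 TPM, and the highest ratio of the list at 0.57 (interval 0.44 to 0.71). Nptx2 (chromosome 5, 144545902 to 144557478, plus strand, ENSMUSG00000059991), a secreted pentraxin that clusters AMPA receptors, had 785 and 895 counts, or 15.29 and 20.86 TPM, and a ratio of 0.45 (interval 0.31 to 0.59). Rgs2, a brake on G protein signalling, had 736 and 716 counts and 0.22 (interval 0.07 to 0.37), although its TPM was lower in replicate 2, at 21.41 against 23.11. For Ptgs2 and Nptx2 the higher value in replicate 2 held on both scales, and neither reached the criterion.

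Arl4d (ENSMUSG00000034936), a small GTPase of the ARF family, had 155 and 159 counts, or 5.74 and 7.04 TPM, and a ratio of 0.29 (interval -0.03 to 0.62) that covered 0. Amigo3, a cell adhesion protein, had 58 and 26 counts, under the count minimum, and a ratio of -0.85 (interval -1.62 to -0.21). Amigo3 overlaps Rnf123 on the opposite strand, a gene with 2545 and 1955 counts.

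The remaining genes act in growth control, RNA decay and protein turnover, and differed least. Of 8 with enough counts, 7 were lower, with a median of -0.25, but only Gadd45b, Btg2 and Tiparp had intervals wholly below 0. Gadd45b, tied to activity-dependent DNA demethylation, had 253 and 160 counts and -0.40. Btg2, an anti-proliferative factor, had 496 and 316 counts and -0.39. Tiparp, an ADP-ribosyltransferase, had 577 and 393 counts and -0.29, and its TPM differed more, at 10.58 and 5.95. Fbxo33 (chromosome 12, 59200655 to 59219725, minus strand, ENSMUSG00000035329), a ubiquitin ligase subunit, was the most abundant with 31.87 and 36.35 TPM, on 1452 and 1164 counts and a ratio of -0.06 (interval -0.17 to 0.05).

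Ier5 had 1051 and 834 counts and -0.07, Gadd45g 176 and 128 counts and -0.20, and Ier2 126 and 84 counts and -0.32, all with intervals that covered 0. Ier3 (ENSMUSG00000003541), with 62 and 64 counts, or 2.85 and 3.52 TPM, had a ratio of 0.30 (interval -0.22 to 0.83), also covering 0. Zfp36, whose product tristetraprolin binds AU-rich elements and speeds decay of its targets, had 44 and 41 counts, under the minimum. These 5 genes therefore did not differ beyond the counting error of single libraries.

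**Figure D3:**
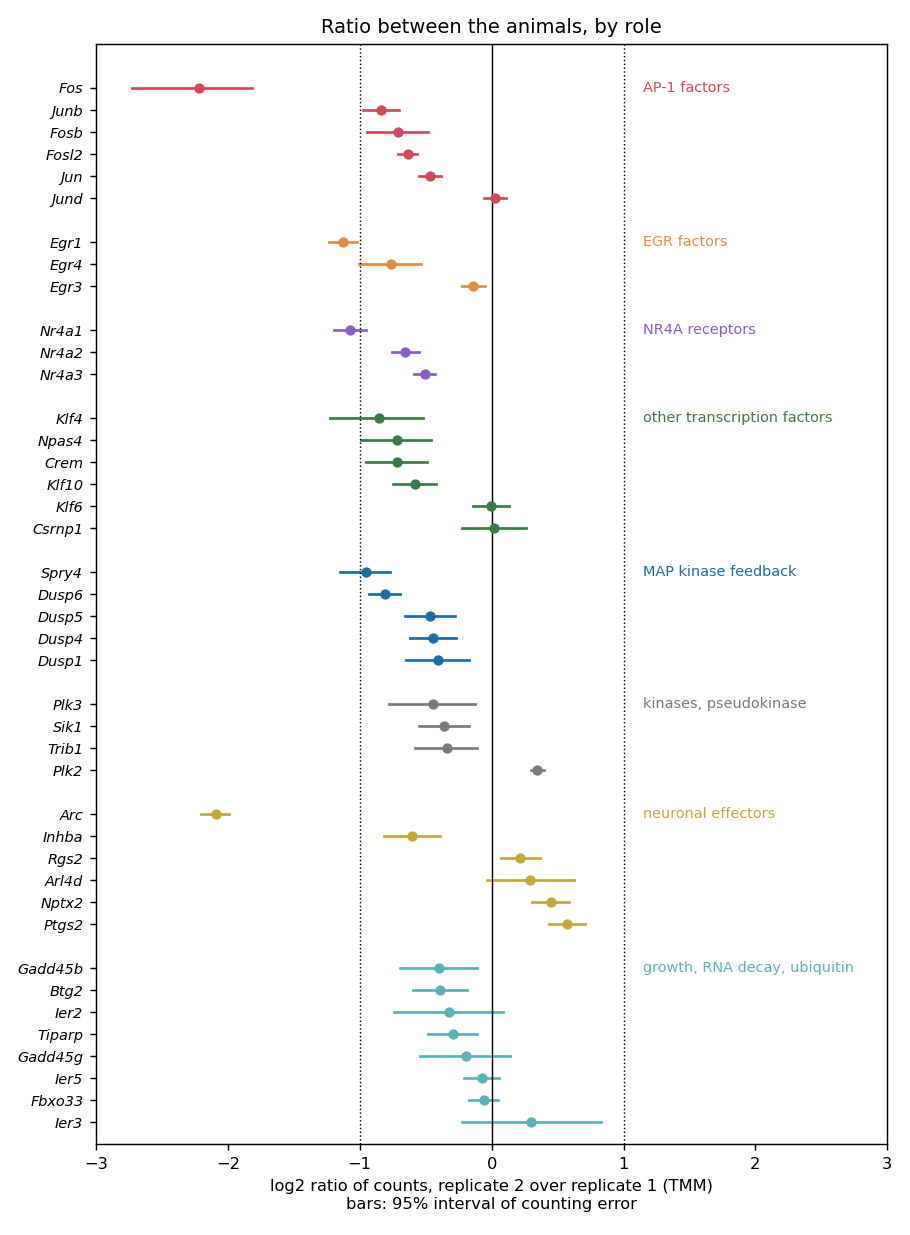
Log2 ratio of replicate 2 over replicate 1 (horizontal axis) for the 41 genes with a mean count of at least 50, grouped and coloured by role, with bars for the 95% interval of counting error and dotted lines at 1 and -1. The EGR, NR4A and MAP kinase feedback genes all lie below 0, and 4 of the 6 neuronal effectors lie above it (3 with spike-in scaling).

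The leading transcript was read for the 29 of the 41 genes with more than 1 annotated transcript. It was the same in both animals for 25 of the 29, and the same in both animals and both transcript tables for 21. Over all 41 genes, protein-coding transcripts held a median of 99.7% of the gene's TPM in replicate 1 and 100% in replicate 2. The medians over 12646 protein-coding genes were 88.4% and 87.8%. The 41 include 12 genes with a single transcript, whose share is 100% by construction, and the 12646 include 1152 genes with a single transcript. These medians therefore do not compare the coding share of genes with several transcripts. Of 14 genes with an annotated retained-intron transcript, the share of that class was lower in replicate 2 for 7 (50%), beside 44% of 7419 genes. That count rests on the first transcript table. There the median share of the class over the 14 genes was 8.62% in replicate 1 and 10.6% in replicate 2. In the second table it was 13.2% and 9.72%, so the direction differed between the tables.

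By level, 8 genes with at least 2 transcripts of at least 10% each were described. Arc has 2 coding transcripts with coding regions of equal length, Arc-201 and Arc-202, and their shares were 66.6% and 33.4% in replicate 1 and 55.8% and 44.2% in replicate 2. Their counts carried a posterior SD from read assignment of 210 in replicate 1 and 95.1 in replicate 2. Both transcripts were lower in replicate 2, Arc-201 with 2807 and 460 counts and Arc-202 with 1408 and 364. Egr1 was led by Egr1-202, with 87.2% and 89.8%. Nr4a3-201 held 66.7% and 65.6% of its gene, and Nr4a2 was shared by Nr4a2-201 with 40.7% and 39.1% and Nr4a2-203 with 39.4% and 44.5%. Egr1-202 and Nr4a3-201 therefore led their genes in both animals in that table. In Nr4a2 the larger share was that of Nr4a2-201 in replicate 1 and of Nr4a2-203 in replicate 2. Their counts were 1012 and 938 in replicate 1, with posterior SDs of 123 and 146. In replicate 2 they were 533 and 581, with SDs of 92.1 and 97.8, so neither lead exceeded those errors. The second table gave the same order of shares.

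Egr3 was split among the coding Egr3-204 with 27.3% and 26.7%, the short noncoding Egr3-203 with 26.7% and 30.1%, and a single-exon form annotated as a retained intron with 39.1% and 37.6%. The second table gave the retained-intron form 36.4% and 22.2%, and Egr3-203 23.5% and 38.0%, where it led in replicate 2. Dusp6-201 held 47.9% and 54.8%. Dusp6-204 differed in the first table, with 25.2% and 6.93%, but not in the second, with 6.16% and 6.83%. Fbxo33-201 held 51.8% and 34.8%, and Rgs2-202 held 39.6% and 55.6%. Shares of short transcripts weigh heavily in TPM because few counts on a short length give a high value. That holds for Egr3, Dusp6, Fbxo33 and Rgs2. Egr3-203, of 489 bases, had 91 and 80 counts, beside 919 and 703 for Egr3-204. In the second table Egr3-203 had 56.3 and 83.2 counts, beside 1241 and 1166. Its lead there in replicate 2 was thus in TPM and not in counts.

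Npas4 and Dusp1 were picked for description after their values were seen. In Npas4 the gene's lower count in replicate 2 did not fall on the coding transcript. Npas4-201, which codes for the full protein, had 118 counts in replicate 1 and 147 in replicate 2, with posterior SDs of 24.5 and 14.1, and 155 and 142 in the second table. The retained-intron transcript Npas4-202 had 152 and 15 counts, and 135 and 15.9 in the second table, and Npas4-203, annotated for nonsense-mediated decay, had 83 and 16. Coding Npas4-201 thus held 30.5% of the gene's TPM in replicate 1 and 79.1% in replicate 2. In Dusp1 the retained-intron transcript Dusp1-203 had 93 and 22 counts, and 103 and 23.5 in the second table, while the coding Dusp1-202 had 275 and 196. Another retained-intron transcript, Dusp1-204, had 17 and 17 counts, and 16.8 and 18.3 in the second table. In both tables the relative difference between the animals was larger for Npas4-202 and Dusp1-203 than for the coding transcript of the same gene. Dusp1-204 was not lower in replicate 2 in either table.

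Fosb and Nr4a1, also picked after their values were seen, show where the tables limit a reading. Fosb-206 encodes 237 codons that match the first 237 of the 338 codons of Fosb-201, the length of the truncated product DeltaFosB. It had 15 and 20 counts with posterior SDs of 10.6 and 7.73, and 24.1 and 34.0 counts in the second table, so its level did not differ beyond those errors. Fosb-201 had 185 and 151 counts in the first table and 367 and 194 in the second. The share of Fosb-206 was 10.4% and 24.9%, or 17.6% and 38.8% in the second table. For Nr4a1, the first table gave Nr4a1-201 83.8% and 50.2% of the gene, and the second gave it 0.0768% and 0.000912%, with Nr4a1-202 at 88.5% and 93.7% instead. Nr4a1-201 and Nr4a1-202 have coding regions of 1803 bases each and were not told apart by these tables.

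**Figure D4:**
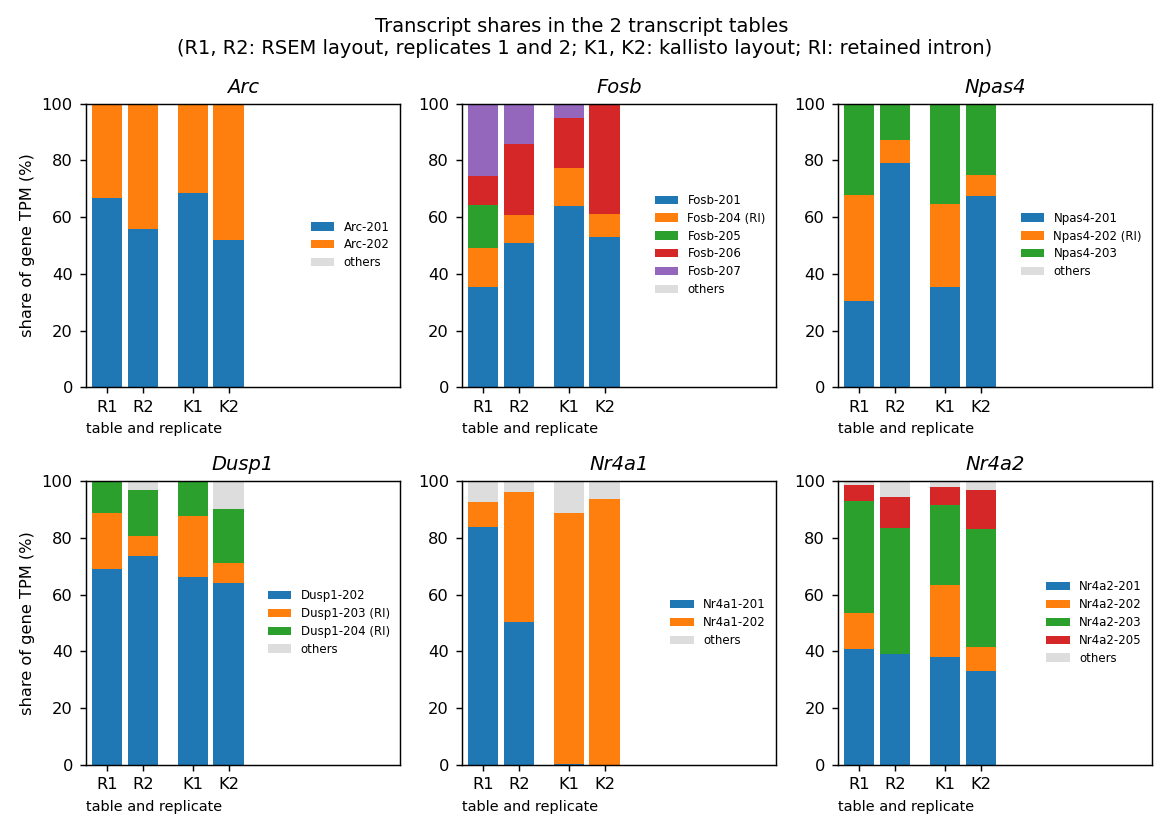
Share of the gene's TPM (vertical axis, percent) held by each transcript of Arc, Fosb, Npas4, Dusp1, Nr4a1 and Nr4a2 in replicates 1 and 2, first in the table with the RSEM layout (R1, R2) and then in that with the kallisto layout (K1, K2); grey marks all other transcripts and RI a retained intron. The retained-intron share of Npas4 is smaller in replicate 2 in both tables (37.4% to 7.97% in the first), whereas the Nr4a1 bars disagree between the tables.

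Beyond what selected them, the 47 genes were compact by their medians, though not all of them were. Crem spanned 71701 bp and Dusp1 56539 bp, and Plk3 had 15 exons. Their median span was 6714 bp, beside 25863 bp over 12989 detected protein-coding genes, and the median of 4 exons stood beside 9. Of the 47 genes, 33 (70.2%) had at most 4 exons in their longest coding transcript, beside 22.6%, and Amigo3, Ier2, Ier5, Jun, Junb and Jund had a single exon. The transcripts themselves were of ordinary length, with medians of 2931 and 3252 bases, and so were the 3′ UTRs, with 1189 and 1200 bases. The shorter span therefore lay mostly in introns.

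An AU-rich nonamer, written TTATTTATT in the DNA and known from unstable mRNAs, was found in the 3′ UTR of 11 genes (23.4%), beside 8.21% of the detected protein-coding genes. The 11 were Csrnp1, Dusp1, Fos, Fosl2, Inhba, Maff, Plk2, Plk3, Ptgs2, Tiparp and Zfp36. They include both Fos, lowest in replicate 2, and Ptgs2 and Plk2, which were higher there. The shorter ATTTA occurred 2.51 times per kilobase of 3′ UTR in the list and 1.83 times in the other set.

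RefSeq promoter windows, 250 bases before to 50 after the start, matched 35 of the 47 genes by symbol. Not every window sits at the annotated start of the gene. The 250 bases of the Jund window end at 70697738, before the gene's annotated start at 70698949, and Jund is counted as holding none of the motifs. Arc, Crem, Dusp4, Egr1, Egr3, Fosl1, Ier2, Klf10, Nptx2, Sik1, Spry4 and Trib1 had no entry and are in none of the motif counts. TGACG on either strand was present in 21 of the 35 (60%), beside 23.0% of 27025 genes with a window. The full element TGACGTCA, which contains the core on both strands, was present in Arl4d, Btg2, Dusp1, Maff and Plk2 (14.3%), beside 2.03%. The serum response element, searched as the CArG box on either strand, was found in Dusp5, Egr2 and Zfp36 (8.57%), beside 1.81%, and GCGGGGGCG in Fosb, Fosl2, Klf4, Nr4a1 and Zfp36 (14.3%), beside 3.31%. A window of this length leaves out more distant elements, and the absence of letters says nothing about a factor.

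The ratios are given by promoter letters as a description, with no test. The 18 genes with TGACG on either strand and enough counts had a median log2 ratio of -0.49, with 13 lower, and ranged from -2.22 to 0.57. The 12 genes without it had a median of -0.25, with 10 lower. The 4 genes with the full element, Arl4d, Btg2, Dusp1 and Plk2, had a median of -0.05 with 2 lower, and the 4 with an EGR site, Fosb, Fosl2, Klf4 and Nr4a1, had a median of -0.78 with 4 lower. Arc and Egr1, which met the 2-fold criterion, are in none of these sets.

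Other genes of the same pathway had medians near that of all genes. Among 23 genes that carry the signal to transcription, including MAP kinases and the factors that sit at these promoters, 16 were lower in replicate 2, the median log2 ratio was -0.04, and none met the criterion, which 0.513% of all genes met on the lower side and 0.589% on the higher side. Of the 23, 9 had intervals wholly below 0 and 3 wholly above, beside 25.6% and 18.7% of all genes. Creb1 at -0.37, Srf at -0.35 and Elk1 at -0.33, named after their values were seen, were among the 9. The 3 wholly above were Mef2c at 0.38, Crtc3 at 0.17 and Camk4 at 0.14. Among the most abundant were Map2k1, which encodes a kinase of the MAP kinase cascade, with 146.73 and 147.73 TPM and a ratio of 0.01, and Mef2d, a calcium-responsive transcription factor, with 99.58 and 90.01 TPM and -0.06. Among 17 tested genes that activity also regulates but that are not on the list, 8 were lower and the median was 0.01. Again none met the criterion. Intervals lay wholly below 0 for 6, with Gpr3 at -0.85 and Homer1 at -0.59, and wholly above for 4, with Bdnf at 0.47 and Rgs4 at 0.33. Gpr3, Homer1, Bdnf and Rgs4 were also named after their values were seen. The most abundant of the 17 were Nrn1 with 119.35 and 122.26 TPM and a ratio of 0.03, Vgf with 99.74 and 119.56 TPM and 0.12, and Scg2 with 91.86 and 96.25 TPM and 0.07. Nrn1, Vgf and Scg2, whose products are secreted or sit at the cell surface, were therefore level or slightly higher in replicate 2, and slightly lower with spike-in scaling.

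Libraries and other gene groups also differed between the 2 animals. Replicate 1 had 34147398 expected counts on annotated genes and replicate 2 had 28356895. All 7 heat shock genes were lower in replicate 2, with a median of -0.57, a summed TPM of 1961 and 1426, and Hspb1 at -1.62 and Hspa1b at -1.24 meeting the criterion. The heat shock genes with the highest TPM, Hspa8, Hsp90aa1 and Hsph1, had ratios of -0.55, -0.16 and -0.41. Among 10 glucocorticoid-responsive genes 5 were lower, the median was -0.03, and Sgk1 was higher with 1263 and 2182 counts, or 36.59 and 83.17 TPM, and a ratio of 1.05, which met the criterion but fell short of it at 0.80 with spike-in scaling. The most abundant of that list, Mt2, Mt1 and Zbtb16, had ratios of 0.10, 0.12 and -0.38. The glucocorticoid list thus lay in both directions, and the heat shock list in the direction of Fos and Arc.

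All 11 markers of choroid plexus epithelium, the tissue that secretes cerebrospinal fluid, were higher in replicate 2, with a summed TPM of 31.1 in replicate 1 and 653 in replicate 2. The 7 with enough counts all met the criterion (Ttr, Aqp1, Clic6, Sostdc1, Kcnj13, Kl and Slc4a5), with a median of 3.26, although Kl, at 1.20, was at 0.96 and short of it with spike-in scaling, and Kcne2 was at 0 in replicate 1. The part of choroid plexus tissue, of the heat shock genes' difference and of depth in the ratios of the 47 genes was not tested. The hippocampal and other brain cell markers had list medians of -0.08 for dentate granule cells, -0.01 for CA1, -0.17 for CA3, 0.12 for glutamatergic neurons in general and -0.10 for interneurons. Those of astrocytes, oligodendrocytes, microglia and endothelium were -0.08, 0.12, 0.06 and -0.17. Single markers lay farther out, from -0.49 for the CA3 marker Coch to 0.60 for the oligodendrocyte marker Mog, with the CA1 marker Wfs1 at 0.57 (genes picked after their values were seen). No gene of these 9 lists met the criterion, beside 0.513% and 0.589% of all genes on the lower and higher side.

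**Figure D5:**
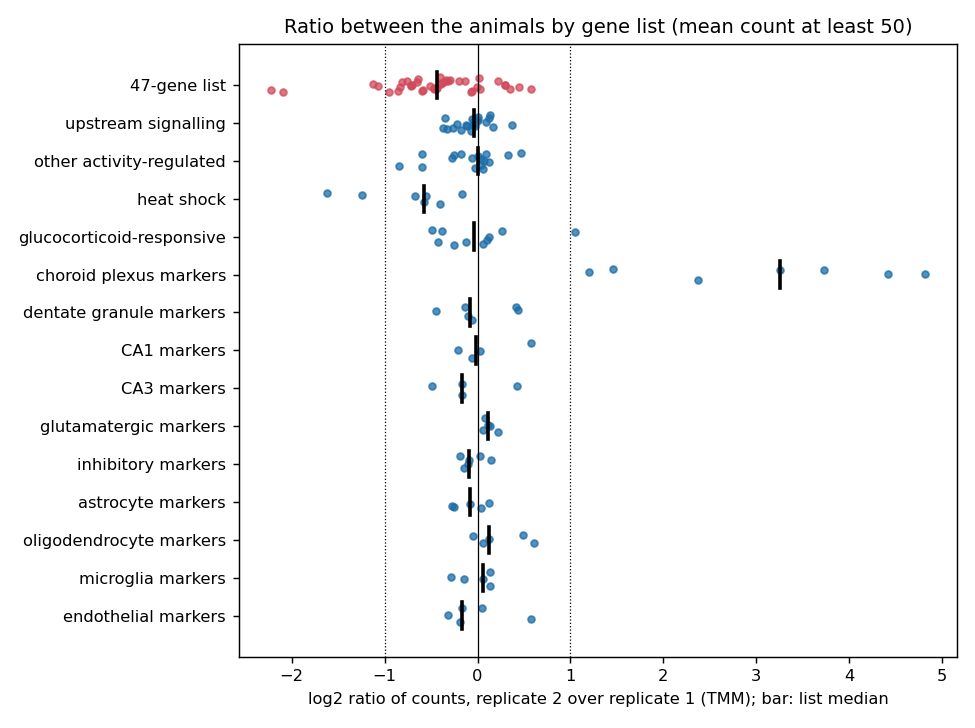
Log2 ratio of replicate 2 over replicate 1 (horizontal axis) for each gene with a mean count of at least 50 in the 47-gene list (red), other response lists and cell type marker lists (blue), with a black bar at each list's median. The 47-gene list and the heat shock list have medians of -0.44 and -0.57, choroid plexus markers lie far to the right with a median of 3.26, and the other lists lie around 0.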

How the data were processed

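Total RNA-seq of hippocampus from 2 mice was read from a gene table and 2 transcript tables per library, on mm10 with GENCODE M21 as notes deposited with the files state. Expected counts were deposited without normalisation in RSEM's column layout, per the file headers; a read that fits several genes is divided among them, so they need not be whole. The authors also deposited TPM values, which are scaled by length and library, and each transcript's percent of its gene. The posterior SD of each count, a signal column of read-assignment error, was deposited too, and was 0 in both libraries for 46 of the 47 genes. The second transcript table holds estimated counts and TPM that the authors deposited in the column layout of kallisto. The aligner, tool versions and strand setting are not stated in the labels or headers, and 15 of the 47 genes overlap a gene on the opposite strand.

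Counts were rounded and scaled by TMM in edgeR 4.0.16 (R 4.3.3), with a prior count of 2. A ratio has an exact Clopper-Pearson interval at 95%, which covers counting error only, since each animal has 1 library. Reads carry no molecular identifiers, so copies of 1 molecule cannot be told from separate molecules and the interval may be too narrow. The libraries held 34147398 and 28356895 counts. The ratio code was tested on simulated counts. With 1 group of 2 animals, no p-value was computed, and SDs measure only the spread between these 2 samples. The members and gene lists were chosen with earlier results of these data known. Values in full were given for genes meeting the 2-fold criterion, the 8 of highest mean TPM, the 5 of highest ratio and those under a mean count of 50. Of the other lists, the 3 of highest TPM and those meeting the criterion were named, except 1 gene that is not reported here. Other scalings (DESeq2 1.42.0 size factors, spike-in total, total counts), the second table, other prior counts, count and TPM minimums and another promoter window were tried.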

Additional observations from a re-analysis of the deposited data

How the results depend on the processing

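Under DESeq2 size factors, total counts, the second transcript table, a prior count of 0.5 and mean count minimums of 10, 0 and 200, between 3 and 5 genes were at least 2-fold lower in replicate 2 and the median log2 ratio lay between -0.46 and -0.42. Egr2 joined Fos, Arc, Egr1 and Nr4a1 in the second table and under the lower count minimums, and Fos left under a minimum of 200, because its mean count is below it. Scaling by the spike-in total moved all genes by -0.24: 9 genes (Arc, Dusp6, Junb, Nr4a1, Egr1, Egr4, Spry4, Fos and Klf4) were then at least 2-fold lower, beside 1.16% of all genes, and the median was -0.68, beside -0.26. In that scaling 36 of the 41 genes were lower, beside 87.0% of all genes, so the count of lower genes no longer stood out from the rest, while the gap between the medians was -0.42 in both scalings. Over nuclear protein-coding genes alone, the summed TPM was 1654, and the cause is the smaller denominator. The median coding share over the 41 genes, single-transcript genes included, averaged 98.95% over both libraries in the second table, beside 99.8% in the first. Without replicate 1 the summed TPM was 730.86 and 41 genes were at 1 TPM, and without replicate 2 they were 920.88 and 43. For 15 single genes, 75 ratios were read under the alternatives. A ratio of the 4 genes meeting the 2-fold criterion counted as unchanged if it still met the criterion. For the other genes it had to stay inside the interval of counting error. By these rules 66 were unchanged and 9 moved, all under spike-in scaling. In that scaling Arc at -2.34, Nr4a1 at -1.31 and Egr1 at -1.37 still met the criterion but lay outside their intervals. With 1 library per animal, animal, dissection and library cannot be told apart, and genes such as Fosl1 and Atf3 are too shallow for any.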
